A study of Rattus norvegicus with 6 samples.

Results

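The genes described here encode 9 nuclear receptors, those for steroid hormones, thyroid hormone and vitamin D and their shared partner Rxra: Esr1, Esr2, Nr3c1, Nr3c2, Pgr, Thra, Thrb, Rxra and Vdr. Every probe set annotated to 1 of them was taken, which gave 18 of the 7006 probe sets that name a single gene and 9 of 4736 genes. The arrays held RNA of dorsolateral prostate from male rats of the inbred strain ACI, labelled as 18 months old, after 18 months on a high corn oil diet (3 rats) or a low corn oil diet (3 rats). Each rat had its own array of the same short-oligonucleotide design, so the replicates were separate animals. High corn oil replicate 3 was placed by its title and source name, although its description field gives the low diet. The question here is which receptors these arrays could read in prostate, and whether their transcripts differed between rats fed much and little corn oil, a source of omega-6 fat. RNA came from bulk tissue, so fewer cells of a type and less RNA per cell cannot be told apart in any value below.

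Nuclear receptors are transcription factors that bind small fat-soluble hormones and then act on genes that carry their response elements. The steroid receptors (Esr1, Esr2, Nr3c1, Nr3c2 and Pgr) wait in complexes with heat shock chaperones and act mostly as pairs of the same receptor, while the receptors for thyroid hormone (Thra, Thrb) and vitamin D (Vdr) sit on DNA paired with the retinoid X receptor Rxra. In the rodent prostate the oestrogen receptor Esr1 is known mainly from the stroma and Esr2 mainly from the epithelium. Receptor transcripts are generally scarce next to those of secretory or structural proteins, so whether an array reads them above its noise is the first question.

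Only Thra, the thyroid hormone receptor alpha, was read above the noise. The deposited values are intensities on a linear scale in arbitrary units, and 20.4% of them lay below 0, where no transcript signal can be read. The sizes of the values below 0 therefore served as a measure of noise: a probe set was above the noise where its value passed the 95th percentile of those sizes on the same array, on at least 5 of the 6 arrays. That limit was 1237, 2040 and 1745 on high corn oil replicates 1, 2 and 3, against 1049, 1054 and 1227 on low corn oil replicates 1, 2 and 3. It was highest on high corn oil replicates 2 and 3. On all 6 arrays 805 probe sets (9.21%) were below 0. The sizes below 0 thus hold offsets that recur with the probe set besides scatter between arrays, and both enter the limit. Of the 18 receptor probe sets 1 was above the noise, M31174_at for Thra, whereas 30.0% of the 8740 probe sets on the array that are not controls were. With a limit at the 90th percentile it was again M31174_at alone, and at the 99th percentile it was none of the 18. Of the 108 receptor values, 38 were below 0, a share of 35.2%. A receptor under the limit was not detectable at this noise, which does not show that its transcript was absent. Levels of different probe sets cannot be ranked against each other on this array, so the receptors are not put in order of abundance.

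**Figure D1:**
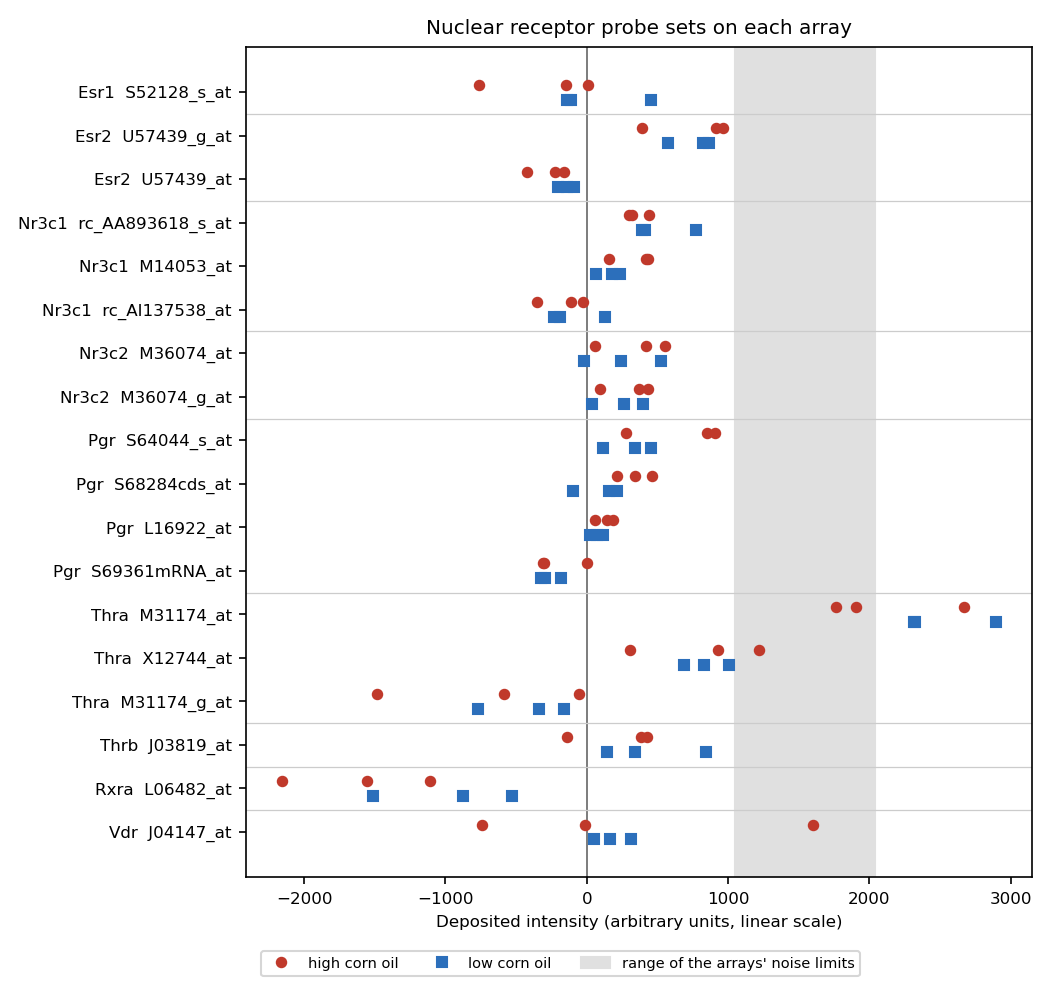
Deposited intensity (arbitrary units, linear horizontal axis) of the 18 receptor probe sets, 1 row each, on the 3 high corn oil arrays (circles, upper line of each row) and the 3 low corn oil arrays (squares, lower line). The grey band spans the arrays' noise limits, 1049 to 2040, and M31174_at for Thra is the probe set whose 6 values each passed the limit of their own array.

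Thra encodes a receptor whose transcript is spliced into a form that binds thyroid hormone and a form that does not, and which of them each probe set reads is not given in the sources used here. Its probe set M31174_at had 1765, 2670 and 1903 units in high corn oil rats, against 2322, 2315 and 2898 units in low corn oil rats. The values overlapped between the diets, since high corn oil replicate 2 was above 2 of the 3 low corn oil rats. On high corn oil replicate 3 the value passed the noise limit by the smallest margin of the 6 arrays, as the plot of the 3 Thra probe sets shows. The mean was 2113 ± 487 (SD, n = 3) under the high diet and 2511 ± 334 under the low diet. On the log2(value + 156.1) scale the difference, high minus low corn oil, was -0.25 ± 0.21 (SE; limma adjusted p = 0.647), with a 95% interval of -0.73 to 0.24. As a fold on that scale the interval runs from 0.601 to 1.18, so a fall to 0.601 times and a rise to 1.18 times the low corn oil level both lie within the error. Signal from the bacterial spike-in controls was higher on high corn oil replicate 1 and on the low corn oil replicates numbered 1 and 2 than on the other arrays. Within the arrays of higher spike-in signal, high corn oil replicate 1 against low corn oil replicates 1 and 2, the difference was -0.36. Within those of lower signal, high corn oil replicates 2 and 3 against low corn oil replicate 3, it was -0.34. Each of these values rests on a single array of one diet.

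The other 2 Thra probe sets did not read the gene above the noise. X12744_at had 926, 309 and 1220 units under the high diet, against 689, 1009 and 831 units under the low diet. Each value was under the limit of its array, and the low corn oil values lay inside the range of the high corn oil values. Its log2 difference was -0.16 ± 0.42 (SE; limma adjusted p = 0.883, 95% interval -1.15 to 0.82), and without high corn oil replicate 2, its lowest array, it was 0.30. M31174_g_at, annotated to the same accession as M31174_at, was below 0 on all 6 arrays, from -1481 to -57.7 units under the high diet and from -769 to -161 units under the low diet. Among the 906 pairs of probe sets that share an accession in this way, 233 (25.7%) had 1 of the pair above the noise and the other not. A pair with 1 probe set above the noise on all arrays and the other below 0 on all arrays, as for Thra, occurred 14 times (1.55%).

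**Figure D2:**
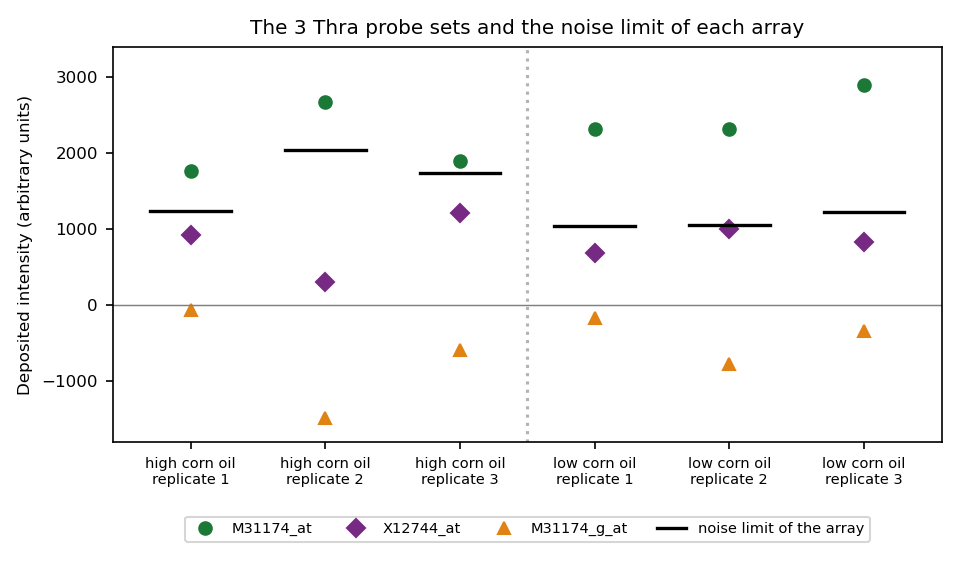
Deposited intensity (arbitrary units) of the 3 Thra probe sets on each array, high corn oil rats on the left and low corn oil rats on the right, with a black bar for the noise limit of that array. M31174_at lay above the bar on all 6 arrays, by least on high corn oil replicate 3 (1903 against a limit of 1745), X12744_at lay under it, and M31174_g_at lay below 0.

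The Thra locus overlaps that of Nr1d1, the circadian repressor Rev-erb alpha, in the GRCr8 rat annotation. The 2 Nr1d1 probe sets are shown for that overlap and not for their values. M25804_g_at for Nr1d1 had 1267, 4137 and 3618 units under the high diet, against 4071, 4467 and 3840 units under the low diet, above the noise on all 6 arrays. Its partner M25804_at, with 687, 2391 and 1592 units under the high diet and 1973, 3840 and 2335 units under the low diet, was above the noise on 4. High corn oil replicate 1 had the lowest Nr1d1 value in both probe sets and also the lowest M31174_at value. The genes whose profile was most like that of M31174_at over the 6 arrays, of 4308 named probe sets compared, were Kiaa0040 (Pearson r = 0.973) and Cox8b, a subunit of cytochrome c oxidase (r = 0.972). Both were under the noise limit on all 6 arrays, and over 6 arrays high values of r come readily among so many profiles, so these are descriptions.

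Thrb, the thyroid hormone receptor beta, was not read above the noise. Its probe set J03819_at had 381, -141 and 424 units under the high diet, against 146, 340 and 846 units under the low diet. The diets overlapped widely, and the difference in means was -223 units (exact permutation p = 0.6, both directions tested), where 0.1 is the smallest possible p with 3 against 3. The value shifted with single arrays: it was -21.8 units without low corn oil replicate 3 and -41.5 units without high corn oil replicate 2, and it was 138 units within the arrays of higher spike-in signal and -704 units within those of lower signal. Its mean over the arrays, 333, was just under the value of 343 that a probe set needed to enter the limma fit.

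The oestrogen receptors gave no reading above the noise either. Esr1, the receptor alpha, had 7.30, -150 and -761 units in S52128_s_at under the high diet, against -109, -138 and 453 units under the low diet. Of its 6 values 2 were above 0, 1 in each diet, and the exact permutation p was 0.4. For Esr2, the receptor beta, U57439_g_at had 914, 967 and 394 units under the high diet, against 826, 862 and 576 units under the low diet. All were above 0 and under the limit of their array. The means were almost equal, at 758 ± 316 (SD, n = 3) in high corn oil rats and 754 ± 156 in low corn oil rats, and the log2 difference was -0.05 ± 0.34 (SE; limma adjusted p = 0.962). Its 95% interval, -0.85 to 0.75, leaves room for a change in either direction, and without high corn oil replicate 3 the difference was 0.28. U57439_at, from the same accession, was below 0 on all 6 arrays, from -421 to -159 units under the high and from -201 to -92.2 units under the low diet. With a noise limit scaled from the median size of the values below 0, a setting chosen after the data were seen, U57439_g_at and the Thra probe set X12744_at joined M31174_at above the noise, and Esr2 would then count as read.

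Nr3c1, the glucocorticoid receptor, had 3 probe sets that did not agree in direction, and none was above the noise. The one that entered the fit, rc_AA893618_s_at, had 299, 323 and 439 units under the high diet, against 775, 393 and 410 units in low corn oil rats. High corn oil replicate 3 lay above 2 of the low corn oil rats, and low corn oil replicate 1 stood above the other 5 arrays. Its log2 difference was -0.39 ± 0.33 (SE; limma adjusted p = 0.652, 95% interval -1.17 to 0.40). M14053_at went the other way, with 161, 435 and 419 units under the high diet, against 64.7, 233 and 180 units under the low diet, a difference in means of 179 units and an exact permutation p of 0.3. The last, rc_AI137538_at, was below 0 on 5 of 6 arrays and gave an exact permutation p of 0.7. The mean over the 3 probe sets differed by -0.01 on the log2 scale. For Nr3c2, the mineralocorticoid receptor, M36074_at had 419, 60.4 and 556 units under the high diet, against 240, -21.5 and 524 units under the low diet. Both M36074_at and its partner M36074_g_at, at 90.5, 436 and 366 units under the high diet against 398, 262 and 38.7 units under the low diet, overlapped between the diets (exact permutation p = 0.7 and 0.6), and their arrays did not rank alike: high corn oil replicate 2 was the highest in M36074_g_at and the second lowest in M36074_at.

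Pgr, the progesterone receptor and a classical oestrogen target, had the largest difference among the receptor probe sets in the fit, and it did not pass the test. S64044_s_at had 281, 910 and 853 units under the high diet, against 451, 343 and 114 units in low corn oil rats. High corn oil replicates 2 and 3 were above all low corn oil rats, while high corn oil replicate 1 lay below 2 of them, and all 6 values were under the noise limit of their array. The mean was 682 ± 348 (SD, n = 3) in high corn oil rats and 303 ± 172 in low corn oil rats. The low corn oil mean was under the 343 needed to enter the fit, so this probe set entered through its high corn oil values. The log2 difference was 0.84 ± 0.48 (SE; limma adjusted p = 0.534, 95% interval -0.29 to 1.97). Within the arrays of higher spike-in signal, where high corn oil replicate 1 is the one high corn oil array, it was -0.33, and within those of lower signal 1.94. Without low corn oil replicate 3 it was 0.50.

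S68284cds_at, another Pgr probe set, was the 1 receptor probe set of 18 whose diets did not overlap. It had 218, 339 and 464 units under the high diet, against 155, -95.2 and 217 units under the low diet. In a limma fit with no filter on the mean its log2 difference was 0.89, larger than the 0.84 of S64044_s_at. The lowest high corn oil value, 217.5, and the highest low corn oil value, 217.4, differed by 0.1 units, and the exact permutation p of 0.1 was the smallest that the design allows. Over all 8740 probe sets 15.7% did not overlap in either direction, 7.30% with the high corn oil rats above, and among the probe sets outside the limma fit, to which this one belongs, 16.0% did not overlap. The share of 1 in 18 is no more than the background. The remaining 2 Pgr probe sets, L16922_at (61.8 to 189 units under the high and 24.6 to 114 under the low diet) and S69361mRNA_at (below 0 on all 6 arrays), overlapped, with exact permutation p-values of 0.3 and 0.7.

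Rxra, the partner of the thyroid hormone and vitamin D receptors, was below 0 on every array. L06482_at had -1110, -2156 and -1556 units under the high diet, against -526, -873 and -1511 units under the low diet. The 4 receptor probe sets below 0 on all 6 arrays, for Rxra, Esr2, Pgr and Thra, belong to 805 such probe sets (9.21%) on the array. No level and no fold can be given for Rxra from this probe set, its only one, and the difference of -637 units (exact permutation p = 0.2) was -51.8 units after quantile normalization. Vdr, the vitamin D receptor, had -15.1, 1603 and -739 units in J04147_at under the high diet, against 314, 165 and 51.3 units under the low diet. The value of 1603 on high corn oil replicate 2 stood alone and was still under that array's limit of 2040, and the exact permutation p was 1.

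No receptor probe set passed the comparison between the diets. Of the 18, 5 entered the limma fit, for Esr2, Nr3c1, Pgr and Thra, by a mean of at least 343 over the 6 arrays, and 13 did not, among them all probe sets of Esr1, Nr3c2, Thrb, Rxra and Vdr. Of the 5, 0 passed at an adjusted p under 0.05, and 0.00% of all 5244 probe sets in the fit did. At an unadjusted p under 0.05 there were 0 of the 5 in limma, beside 9.95% of all tested probe sets, which for 5 probe sets is near the background. The smallest unadjusted limma p among the 5 was 0.123, for Pgr. Of the 13 outside the fit, the exact permutation p adjusted over them was at least 0.758. The median log2 difference over all tested probe sets was 0.03, and 4 of the 5 receptor probe sets were below 0 on that scale. Misses of this kind do not show that the receptors were alike under the diets, since the intervals of all 5 reach beyond 0.2 in both directions.

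**Figure D3:**
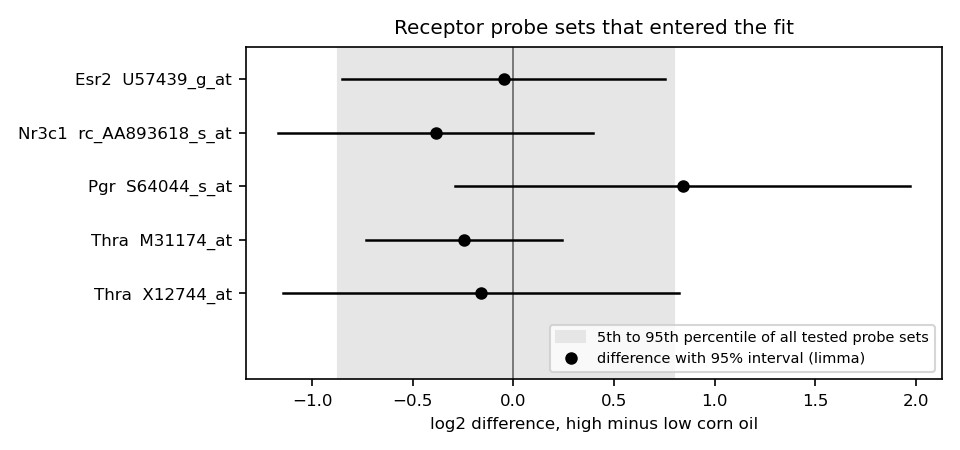
Log2 difference, high minus low corn oil, with its 95% interval from limma for the 5 receptor probe sets in the fit, 1 row each. The grey band spans the 5th to 95th percentile of all 5244 tested probe sets, -0.87 to 0.80, and every interval crosses 0.

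Genes of prostate secretion and of other cell types also varied between the arrays. None of the tested genes in these marker lists passed limma's adjusted threshold, and the summed levels below were not tested. An unadjusted limma p under 0.05 was found for 9.95% of all tested probe sets. It was found for 5 of 7 tested fibroblast and 3 of 4 tested macrophage markers, and all tested markers of these 2 lists were lower. For smooth muscle it was 2 of 8, for luminal epithelium 1 of 6, for mast cells and nerve 1 of 2 each, and for prostate secretion 0 of 7. Of the listed genes of prostate secretion, Pbsn, the prostate secretory protein probasin, and Msmb, microseminoprotein, were above the noise on all 6 arrays. Pbsn had 99574, 19851 and 21926 units under the high diet, against 78113, 82039 and 81437 units under the low diet. Msmb had 73854, 33652 and 39953 units under the high diet, against 66835, 71719 and 80234 units under the low diet. High corn oil replicates 2 and 3 were the lowest in both genes. Tgm4, Scgb2a1 and Scgb1d2 were also above the noise on all 6 arrays and did not follow this order. Tgm4 was lowest on low corn oil replicate 3. Scgb2a1, Scgb1d2 and Sbp, given below, shared an order: lowest on high corn oil replicate 1, then on low corn oil replicates 2 and 3. Scgb1d2 had 3636, 36941 and 43508 units under the high diet, against 45781, 15797 and 18710 units under the low diet. Spink1 and Azgp1 were under the noise limit on every array. Klk1 was above it on 2 arrays, so it was not called above the noise. It had -166, 3981 and 4849 units under the high diet, against 778, 5.7 and 152 units under the low diet. Sbp, the spermine-binding protein that is best known from the ventral lobe of the rat prostate, had 1891, 45313 and 53056 units under the high diet, against 39729, 6801 and 12179 units under the low diet, with high corn oil replicates 2 and 3 at the top. These are the 2 arrays that also had the highest Pgr S64044_s_at values, and the part of the prostate secretion genes in that result was not tested. Of the 12 listed genes of prostate secretion 9 were on the array and 6 above the noise, where 30.0% of all probe sets were. The summed level of the 9 was 214058 to 231111 units in high corn oil rats and 240470 to 330566 units in low corn oil rats. This sum mixes genes that did not move alike. Fibroblast markers, with 7 of 9 on the array and all 7 above the noise, summed to 57466 to 78434 units in high corn oil rats and 89997 to 125568 units in low corn oil rats. These sums did not overlap, beside 15.7% of all single probe sets that did not. Luminal epithelial markers, with 6 above the noise, overlapped, at 111108 to 128778 units in high corn oil rats and 112232 to 118908 units in low corn oil rats. Macrophage markers (3 of 5 on the array above the noise) summed to 13539 to 18302 units in high corn oil rats and 18388 to 28566 units in low corn oil rats, so the diets were only just apart. Mast cell markers (1 of 7 above the noise) summed to 2784 to 3955 units in high corn oil rats and 6612 to 8153 units in low corn oil rats, and nerve markers (1 of 4 above the noise) to 1699 to 5569 units in high corn oil rats and 6992 to 8086 units in low corn oil rats. Smooth muscle markers overlapped, at 133907 to 169279 units in high corn oil rats and 163060 to 201446 units in low corn oil rats, with 7 of 8 lower in the fit. Basal epithelial markers, Krt5 and Krt14, both above the noise, summed to 12862 to 14104 units in high corn oil rats and 11031 to 11927 units in low corn oil rats. None of the 4 endothelial and 8 lymphocyte markers on the array was above the noise. The part of these cell type markers in the receptor values was not tested.

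Coregulators, the proteins that receptors recruit to switch genes on or off, were partly read, and none passed limma's test. Of 33 listed coregulators 11 were on the array and 6 above the noise, where 30.0% of all probe sets were. Here and in the lists below each gene counts by its brightest probe set, which favours a call above the noise. In the fit were 10 of them, 6 higher and 4 lower, with a median log2 difference of 0.14, and 0 passed. At an unadjusted p under 0.05 in limma there were also 0, beside 9.95% of all tested probe sets, which for 10 genes is near the background. The coactivator gene Ncoa4 had 7437, 17239 and 16492 units under the high diet, against 7274, 6577 and 9083 units under the low diet, so high corn oil replicates 2 and 3 stood above the rest and replicate 1 among the low corn oil rats (log2 difference 0.75 ± 0.33, SE; limma adjusted p = 0.501). Calr, the calcium-binding chaperone calreticulin, which can also bind steroid receptors, was at 0.36 ± 0.17 and Safb, a nuclear scaffold protein known in human cells to repress oestrogen receptor activity, at 0.48 ± 0.27.

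The chaperones that hold unliganded steroid receptors were well read, with 9 of 11 on the array above the noise, where 30.0% of all probe sets were. All 11 were in the fit, 6 higher and 5 lower, with a median of 0.06. None passed limma's adjusted threshold. At an unadjusted p under 0.05 in limma there were 0, beside 9.95% of all tested probe sets, which for 11 genes is near the background. Hspa4, a heat shock protein of the Hsp110 family, had 1802, 3028 and 1712 units under the high diet, against 1276, 1412 and 1434 units under the low diet, with no overlap (0.57 ± 0.24, SE; limma adjusted p = 0.50). The cyclophilin Ppid was at 0.78 ± 0.37 and Stip1, which links Hsp70 to Hsp90, at 0.26 ± 0.21.

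Among 38 other nuclear receptors, 26 were on the array and 7 above the noise, a share near the 30.0% of all probe sets. The 7 were the retinoic acid receptor gene Rara, the oxysterol receptor gene Nr1h2, the circadian repressor genes Nr1d1 and Nr1d2, the COUP family genes Nr2f1 and Nr2f6, and Nr4a1, an immediate early gene. In the fit were 17, 11 higher and 6 lower, with a median of 0.10, and 0 passed in limma, where 2 of the 17 had an unadjusted p under 0.05, a share near the 9.95% of all tested probe sets. Nr1d2, also called Rev-erb beta, had 2701, 2798 and 2049 units under the high diet, against 3218, 3863 and 4163 units under the low diet, with no overlap (-0.55 ± 0.19, SE; limma adjusted p = 0.480). Nr2f2, the orphan receptor COUP-TFII known from stromal and venous cells, was at -0.78 ± 0.32 and Hnf4a, an orphan receptor of liver and gut, at 0.98 ± 0.43. The Nr2f2 probe set was above the noise on 2 arrays and that of Hnf4a on 0.

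Target genes were listed for the glucocorticoid and mineralocorticoid receptors together and for the oestrogen, thyroid hormone and vitamin D receptors. There was no list for Pgr or Rxra. Each list was split between higher and lower. Of 28 listed targets of the glucocorticoid and mineralocorticoid receptors 19 were on the array and 10 above the noise, where 30.0% of all probe sets were. In the fit were 13, 5 higher and 8 lower, with a median of -0.03. Of the 13, 3 had an unadjusted limma p under 0.05, beside 9.95% of all tested probe sets. Atp1b1, a sodium pump subunit, had 29270, 27680 and 22773 units under the high diet, against 39199, 37645 and 38505 units under the low diet, with no overlap (-0.54 ± 0.14, SE; limma adjusted p = 0.462). Scnn1a, a subunit of the epithelial sodium channel, was at 1.04 ± 0.42 and Klf9, a transcription factor that answers both glucocorticoid and thyroid hormone, at 0.84 ± 0.36. Both went the other way from Atp1b1: Scnn1a had 2382, 4843 and 8927 units under the high diet, against 2487, 1995 and 2190 units under the low diet, with high corn oil replicate 1 among the low corn oil rats.

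Oestrogen receptor targets numbered 15 on the array of 19 listed, with 8 above the noise, where 30.0% of all probe sets were. In the fit were 12, 7 higher and 5 lower, at a median of 0.04. Of the 12, 0 had an unadjusted limma p under 0.05, beside 9.95% of all tested probe sets, which for so few genes is near the background. Igf1, the insulin-like growth factor, was at -0.77 ± 0.36 (SE) and Ccnd1, the G1 cyclin D1, at 0.60 ± 0.30, and Pgr itself ranked next by p. Of 21 thyroid hormone receptor targets 18 were on the array and 5 above the noise, a share near the 30.0% of all probe sets. In the fit were 9, 5 higher and 4 lower, at a median of 0.04. Of the 9, 3 had an unadjusted limma p under 0.05, beside 9.95% of all tested probe sets. The 3 were Fasn, Me1 and Klf9, and Klf9 was already counted among the 3 of the glucocorticoid and mineralocorticoid list. Fasn, fatty acid synthase, had 4026, 4250 and 6411 units under the high diet, against 2717, 2752 and 3364 units under the low diet, with no overlap (0.68 ± 0.21, SE; limma adjusted p = 0.462). Me1, malic enzyme, at 0.77 ± 0.27, did not overlap either, at 3375, 4198 and 6370 units under the high diet, against 2101, 2541 and 3194 units under the low diet.

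For the vitamin D receptor 12 of 14 listed targets were on the array and 2 above the noise, where 30.0% of all probe sets were. In the fit were 6, 3 higher and 3 lower, at a median of 0.001. Of the 6, 1 had an unadjusted limma p under 0.05, beside 9.95% of all tested probe sets. Spp1, osteopontin, was at 1.35 ± 0.55 (SE), Cyp27b1, the enzyme that makes the active hormone, at 0.48 ± 0.25 and Alpl, alkaline phosphatase, at -0.35 ± 0.22. Spp1 was highest by far on high corn oil replicate 2, with 725, 3226 and 724 units under the high diet, against 389, 538 and 264 units under the low diet. The Spp1 probe set was above the noise on 1 array and that of Cyp27b1 on 0. None of the tested targets in these 4 lists passed limma's adjusted threshold.

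Genes that make, convert or carry the ligands came last. Of 43 listed 32 were on the array and 6 above the noise, where 30.0% of all probe sets were: Hsd11b1, which regenerates active glucocorticoid, the steroid and fatty acid enzymes Hsd17b4 and Hsd17b10, the sulfotransferase Sult1a1, the thyroid hormone deiodinase Dio3 and the retinal dehydrogenase Aldh1a1. In the fit were 15, 9 higher and 6 lower, with a median of 0.19, and 0 passed in limma, where 1 of the 15 had an unadjusted p under 0.05, no more than the 9.95% of all tested probe sets. Hsd17b6, a steroid dehydrogenase, had 485, 820 and 1095 units under the high diet, against 323, 322 and 86.9 units under the low diet. Its diets did not overlap (1.27 ± 0.41, SE; limma adjusted p = 0.475), but it was under the noise limit on all 6 arrays. The steroid reductases Akr1c14 (0.59 ± 0.38) and Akr1c3 (0.51 ± 0.35) were also under the limit on every array.

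**Figure D4:**
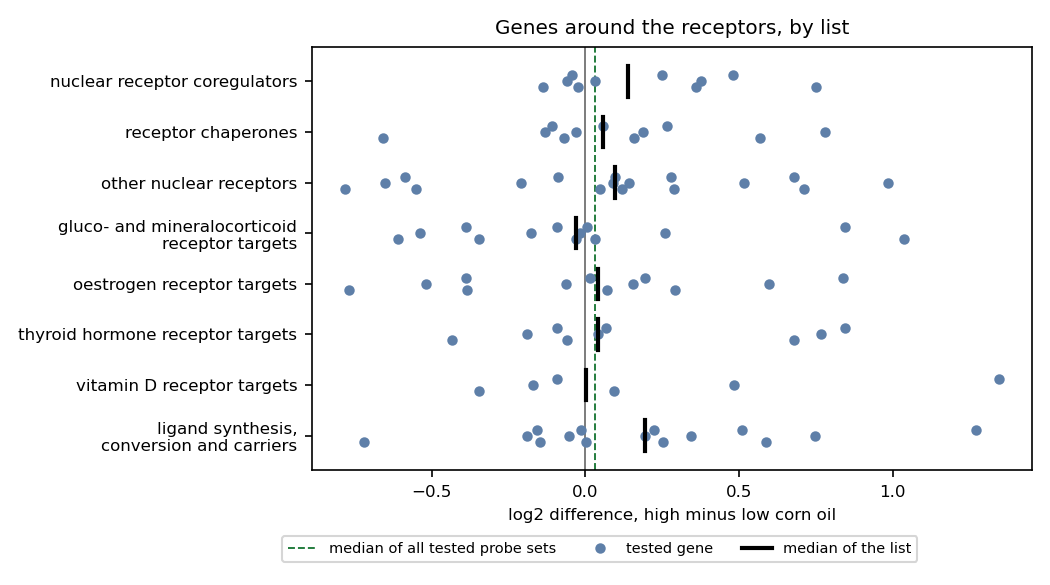
Log2 difference, high minus low corn oil, of each tested gene (points) in the 8 lists of genes around the receptors, with the median of each list as a black bar and the median of all tested probe sets, 0.03, as a dashed line. The list medians lay between -0.03 and 0.19, and the genes of every list fell on both sides of 0.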

How the data were processed

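The authors deposited 1 intensity value per probe set and array, on a linear scale. MAS5 is the only tool in the submitters' processing notes; its version and settings are not given in the sources used here. Signals from that tool are normally positive, so the values below 0, on which the noise limit rests, do not match it, and how they arose is unknown here. After trimming 2% at each end the array means were 2503 to 2504, so the deposited intensity values had been scaled. Detection calls were not used here. Gene names came from the platform annotation, with 6985 of 7006 updated through gene identifiers to GRCr8 symbols.

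Values below 0 were set to 0 and transformed as log2(value + 156.1), the median of all values (624.6) divided by 4; such differences understate the change of dim genes. Probe sets with a mean of at least 343 (40th percentile; 5244 of 8740) were fitted with limma 3.58.1 in R 4.3.3 (intensity trend, no covariate, both directions, Benjamini-Hochberg over all), after a test on simulated data. Other receptor probe sets were compared by an exact permutation test of mean values. A gene stood in a list by its brightest probe set. Named were every receptor probe set, the 3 genes of each list with the smallest p, and the 2 profiles most like each receptor above the noise on all arrays. Members and lists were chosen with earlier results of these data known. With 3 arrays per diet the precision is low. Alternatives changed the pseudocount, floor, filter, normalization, trend, array weights, blocks, noise limit, the diet of high corn oil replicate 3 and the arrays included.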

Additional observations from a re-analysis of the deposited data

How the results depend on the processing

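No receptor probe set passed limma's adjusted threshold under any alternative run. M31174_at of Thra kept its direction in all 17 refits (-0.42 to -0.10), as did Pgr S64044_s_at in 16 (0.35 to 1.26) and Nr3c1 rc_AA893618_s_at in 16 (-0.52 to -0.14). Refits that changed only the filter, the intensity trend or the replicate block cannot move the difference, so their direction was fixed in advance. Esr2 U57439_g_at turned to 0.10 with spike-in level as a block and to 0.46 when high corn oil rat 3 was moved to the low diet. Leaving out each array in turn gave -0.23 to 0.28 for Esr2 U57439_g_at, above 0 when high corn oil rat 3 (0.28), low corn oil rat 1 (0.01) or low corn oil rat 2 (0.04) was the one left out; -0.48 to 0.30 for Thra X12744_at; 0.50 to 1.26 for Pgr S64044_s_at; -0.42 to -0.14 for Thra M31174_at; and -0.52 to -0.14 for Nr3c1. Averaging all probe sets of a gene gave -0.014 for Nr3c1 and 0.51 for Pgr, and Pgr was at -0.33 and 1.94 within arrays of high and low spike-in level. The cause of these shifts was not tested.

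Over all probe sets the count past the threshold was 0, 9 with no filter, and 0 to 214 with 1 array left out (214 without high corn oil replicate 1). Receptor probe sets above the noise numbered 1, but 0 with the 99th percentile as limit on 5 or on 6 arrays, 11 and 8 when a value above 0 sufficed on 5 or on 6 arrays, and 3 with the limit scaled from the median on 5 arrays; leaving out an array kept it at 1. Of the 13 probe sets outside the fit, 1 did not overlap between diets, 2 after quantile normalization, 0 when high corn oil rat 3 was moved to the low diet, and 1 to 6 with an array left out (6 without high corn oil rat 1, 2 without high corn oil rat 2, 3 without low corn oil rat 3). With fewer arrays, separation is easier by construction. The median of the other nuclear receptors, 0.10, was -0.029 to 0.30 with an array left out.

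The labels number replicates alike in both diets, but the rats are separate animals and same-numbered arrays did not deviate together (Pearson r of -0.05, -0.20 and 0.18 across probe sets). With the replicate block, which cannot move the difference in this balanced design, M31174_at was at -0.25 (limma adjusted p = 0.710) and 0 probe sets passed. Differences in mean value outside the fit were unsteady with an array left out: -524 to -140 units for Esr1, -37.0 to 240 for Nr3c2, -371 to -21.8 for Thrb, -908 to -363 for Rxra and -554 to 617 for Vdr. Why 8 of the 9 receptors were under the noise limits of 1049 to 2040 units was not tested.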
